A study of Homo sapiens with 23 samples.

Results

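The 9 genes described here encode the enzymes that write, copy and remove DNA methylation: the methyltransferases DNMT1, DNMT3A and DNMT3B, the catalytically inactive cofactor DNMT3L, the hemimethylated-DNA reader UHRF1, the dioxygenases TET1, TET2 and TET3, and the glycosylase TDG. They were taken as a named list, chosen with earlier results of these data known. All 9 were among the 16371 genes with enough reads to be tested of 36085 genes with an assigned transcript. The files held 84 transcripts of these genes, of which 46 passed the filter on low counts. The cells were NCCITs, a human embryonal carcinoma cell line with pluripotent characteristics. SCi-NCCITs are stable NCCIT clones with a piggyBac-integrated, tetracycline-inducible dCas9-KRAB repressor and constitutive sgRNAs directed at SVA transposons, and every RNA, YY1 and OCT4 library here came from them. RNA-seq was available for 3 libraries without doxycycline and 3 libraries treated with 2 µg/mL doxycycline for 72 hours. For the same cells there were YY1 ChIP-seq (2 libraries per condition), OCT4 ChIP-seq (1 per condition) and H3K9me3 ChIP-seq (2 per condition, and 1 library labelled as NCCIT with no doxycycline treatment applying). The paper states that these guides also match the LTR5Hs transposon family. No doxycycline-treated library lacked the guides, so effects of doxycycline itself, of SVA repression and of LTR5Hs repression cannot be told apart.

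In mammalian cells DNMT3A and DNMT3B place new methyl groups on cytosines in CpG sites, helped by DNMT3L in germ cells and early embryos. DNMT1 copies the pattern to the daughter strand after replication, guided by UHRF1, which binds the half-methylated site and brings DNMT1 to it. TET proteins oxidise the methyl group, and TDG excises the most oxidised forms so that base excision repair restores an unmodified cytosine. DNMT3B, TET1 and DNMT3L are known for high expression in pluripotent cells.

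The sequences at the strongest YY1 peak touching a promoter of DNMT3B, TET2 and DNMT3A are shown first, because the results on promoters refer to them. Each line holds 30 bases of GRCh37 (the sequence of hg19), plus strand, with the match to the YY1 core GCCATNTT or its reverse complement AANATGGC in capitals. The DNMT3B match, at chr20:31349644-31349673, was centred 1 bp from the YY1 summit, upstream of the annotated gene. The TET2 match, at chr4:106068042-106068071, was 9 bp from the summit, in the exon that opens TET2-203. The DNMT3A match, at chr2:25564107-25564136, was 10 bp from the summit, in an intron of the long transcript DNMT3A-201.
DNMT3B: cccctcccttcAAGATGGCtgacaaaggcc
TET2: cagaaggaagcAAGATGGCtgccctttagg
DNMT3A: cgtgccaggctGCCATTTTctgccgccgcc

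The next sequences are the DNMT3B exons that set its main transcripts apart. DNMT3B-202 has 23 exons and codes for 853 residues. DNMT3B-203 lacks 3 of them and codes for 770. Exons 21 and 22 encode part of the catalytic domain, and the form of DNMT3B without them is known to be catalytically inactive. Exons are in capitals and 10 intron bases on either side in lower case, on the plus strand of chromosome 20, at 31381342-31381401 (60 bases), 31393144-31393213 (70 bases) and 31394015-31394133 (119 bases).
DNMT3B exon 10: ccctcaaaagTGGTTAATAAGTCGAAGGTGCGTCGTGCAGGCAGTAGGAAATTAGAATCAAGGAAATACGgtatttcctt
DNMT3B exon 21: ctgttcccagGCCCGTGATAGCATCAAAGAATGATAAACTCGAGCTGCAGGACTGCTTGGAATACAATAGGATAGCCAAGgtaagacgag
DNMT3B exon 22: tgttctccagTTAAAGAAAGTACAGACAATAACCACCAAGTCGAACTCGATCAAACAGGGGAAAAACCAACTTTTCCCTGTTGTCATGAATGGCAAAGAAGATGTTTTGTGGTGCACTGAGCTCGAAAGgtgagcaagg

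The RNA libraries held 14683468, 31905915 and 43443469 estimated counts on annotated genes without doxycycline and 44680610 to 47862394 with it, so replicate 1 without doxycycline was the shallowest. All 10 pluripotency markers examined were detected, with LIN28A between 734 and 841 CPM (counts scaled to library size by the edgeR normalization) and POU5F1, which encodes OCT4, between 169.6 and 239.9 CPM in the 6 libraries. Markers of other lineages were not all absent: TFAP2A stood at 627.3 to 793.5 CPM, COL3A1 at 160.3 to 254.1 CPM and HAND1 at 122.6 to 170.1 CPM, in both conditions, whereas SOX17, AFP, TBXT, NEUROD1, SOX1 and CGA did not pass the filter. In bulk RNA a smaller share of expressing cells and less RNA per cell cannot be told apart. The labels do not say whether the libraries of a condition came from separate cultures, so the p-values measure the spread between these libraries.

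DNMT3B was by far the most abundant of the 9 genes. Levels between genes were compared in TPM, which is per transcript length, with ranges over 3 libraries. Without doxycycline, DNMT3B stood at 161.7 to 197.2 TPM, rank 663 of the 16371 tested genes, and was 3.02-fold above the next member. DNMT1 followed at 57.6 to 63.3 TPM, DNMT3A at 38.4 to 46.2 and TDG at 30.4 to 33.3, each range clear of its neighbours. TET1 (12.6 to 16.8 TPM) and UHRF1 (12.1 to 13.7 TPM) overlapped. TET3 was lower at 4.31 to 5.69 TPM, DNMT3L at 2.89 to 3.14 and TET2 lowest at 1.92 to 2.36. Among the dioxygenases the order was therefore TET1, TET3, TET2. With doxycycline the order of means was the same, but DNMT3A (29.2 to 35.4 TPM) then overlapped TDG (30.7 to 33.4 TPM), and TET3 (3.32 to 4.46 TPM) overlapped DNMT3L (2.55 to 3.41 TPM). Retained-intron models took part of some genes: with protein-coding transcripts alone the mean without doxycycline was 44.5 TPM in place of 60.9 for DNMT1 and 35.1 in place of 42.2 for DNMT3A, and the ranks from DNMT3B to TDG were kept.

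**Figure D1:**
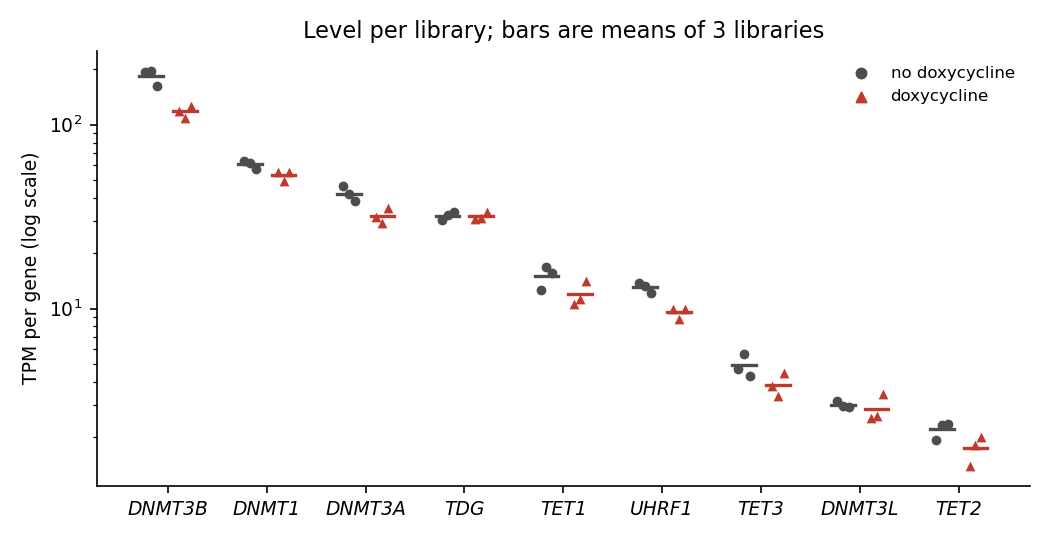
TPM per gene on a log scale for each of the 9 genes, ordered by the mean without doxycycline. Points are the 3 libraries of a condition and bars their means. DNMT3B lies at 161.7 to 197.2 TPM without and 109.0 to 126.1 TPM with doxycycline, far above TET2 at about 2 TPM.

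With doxycycline, DNMT3B, UHRF1 and TET3 RNA fell in the SCi-NCCITs, and the remaining members lay between -0.34 and 0.03 on the log2 scale without passing the test. Of the 9 genes, 3 were thus downregulated and 0 upregulated at an adjusted p under 0.05 in edgeR's quasi-likelihood test, where 17.5% of all tested genes were called, 8.48% as lower and 8.97% as higher. The median log2 fold change was -0.29 over the 9 genes and -0.003 over all tested genes. The 3 libraries with doxycycline lay wholly below the 3 without in CPM for 6 of the 9, against 17.8% of all tested genes. In TPM the libraries of TET2 and TET3 overlapped between conditions, and the share over all tested genes was not computed on that scale.

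Among the de novo methyltransferases, DNMT3B changed most. It measured 566.8, 572.5 and 484.4 CPM without doxycycline and 364, 335.8 and 372 CPM with it, with no overlap between the conditions. The log2 fold change was -0.60 (SE 0.075, edgeR adjusted p = 0.0008945), and the mean TPM with doxycycline was 0.642 of that without. DNMT3A, the second de novo enzyme, measured 113.8, 101.8 and 103.4 CPM without and 92.8, 85.5 and 100.2 CPM with doxycycline, a log2 fold change of -0.19 (SE 0.072) that did not pass (edgeR adjusted p = 0.097). The 6 DNMT3A values did not overlap by condition, but the gap between the nearest libraries was small. DNMT3A passed when counts were scaled for transcript length, at -0.35 (edgeR adjusted p = 0.0204), and when doxycycline replicate 3 was left out, at -0.25 (edgeR adjusted p = 0.0493). DNMT3L, which stimulates the de novo enzymes, had 2.999, 2.776 and 2.973 CPM without and 2.777, 2.617 and 3.083 CPM with doxycycline, and these ranges overlapped (log2 fold change -0.04, SE 0.13, edgeR adjusted p = 0.854).

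In the maintenance pathway UHRF1 was downregulated, with 35.9, 34.9 and 32.8 CPM without and 27.5, 24.6 and 26.2 CPM with doxycycline (log2 fold change -0.40, SE 0.068, edgeR adjusted p = 0.00444). Each library with doxycycline was below each one without. DNMT1 measured 191.7, 186.9 and 175.1 CPM without and 166, 152.6 and 169.9 CPM with doxycycline. Its libraries also separated, but the change of -0.18 (SE 0.062) was small and did not pass in edgeR (adjusted p = 0.075), while DESeq2 gave -0.18 with an adjusted p of 0.0363.

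The TET genes had log2 fold changes between -0.34 and -0.29, and only TET3 passed in edgeR. TET3 measured 39.5, 45.9 and 35.6 CPM without and 31.9, 28.9 and 34.7 CPM with doxycycline (log2 fold change -0.34, SE 0.10, edgeR adjusted p = 0.047). These ranges lay apart by under 1 CPM, and the call was lost without no-doxycycline replicate 1 (edgeR adjusted p = 0.0595) or 2 (0.175), without doxycycline replicate 1 (0.0987) or 2 (0.171), and with length-scaled counts (0.117). TET2 measured 14.3, 16.6 and 16.1 CPM without and 10.5, 12.5 and 14.1 CPM with doxycycline, a change of almost the same size at -0.34 (SE 0.11, edgeR adjusted p = 0.0653). TET1, the most abundant TET gene here, measured 92.2, 120.2 and 113.9 CPM without and 79.9, 86.0 and 102.6 CPM with doxycycline, and the ranges overlapped (log2 fold change -0.29, SE 0.11, edgeR adjusted p = 0.114). Without the shallow replicate 1, TET1 (-0.39, edgeR adjusted p = 0.0275) and TET2 (-0.40, edgeR adjusted p = 0.0461) passed. Whether the 3 TET genes differ from one another in their change was not tested. TDG, which acts after the TET proteins, measured 57.0 to 59.6 CPM without and 58.4 to 60.3 CPM with doxycycline (log2 fold change 0.03, SE 0.050, edgeR adjusted p = 0.701).

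Leaving out doxycycline replicate 3 raised the members called from 3 to 6 (DNMT3A, TET1 and TET2 in addition), and leaving out no-doxycycline replicate 2 or doxycycline replicate 1 or 2 lowered them to 2. DNMT3B and UHRF1 were called whichever of the 6 libraries was left out, with DNMT3B between -0.67 and -0.56 on the log2 scale.

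**Figure D2:**
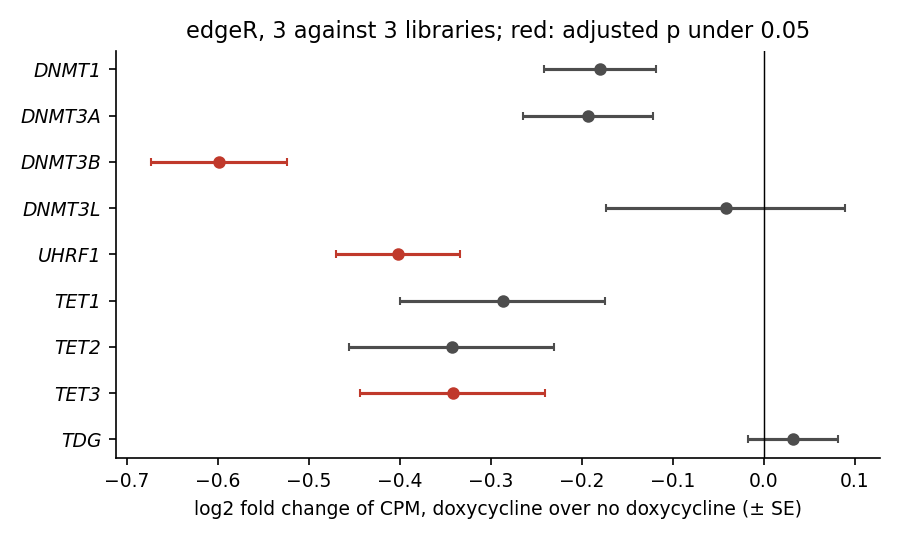
Log2 fold change of CPM, doxycycline over no doxycycline, for the 9 genes, with the standard error of the edgeR fit of 3 against 3 libraries. Red points passed an adjusted p of 0.05: DNMT3B at -0.60, UHRF1 at -0.40 and TET3 at -0.34. TDG is the only point above 0, at 0.03.

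At the level of transcripts, 1 of the 46 tested member transcripts was called lower and 0 higher, against 0.387% of all 66421 tested transcripts called lower. This was DNMT3B-202 (ENST00000328111), the full-length form, which held 49.6% of the DNMT3B TPM in the mean of all libraries. It measured 98.0, 102.0 and 85.0 TPM without and 54.6, 48.6 and 61.0 TPM with doxycycline (log2 fold change -0.75, SE 0.085, edgeR adjusted p = 0.0268). DNMT3B-203 (ENST00000348286), without exons 10, 21 and 22, measured 62.1, 67.7 and 56.4 TPM without and 48.8, 44.02 and 47.1 TPM with doxycycline (log2 fold change -0.36, SE 0.074, edgeR adjusted p = 0.122). DNMT3B-205, which also lacks exon 5, went from 25.1 ± 5.68 to 15.4 ± 0.652 TPM (SD, n = 3; log2 fold change -0.65, SE 0.16, edgeR adjusted p = 0.177). The libraries separated by condition for all 3 forms, and the share of all tested transcripts that separate in this way was not computed. The call on DNMT3B-202 was lost when any of the 6 libraries was left out, while with a minimum of 10 counts in every library 2 member transcripts were called.

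The share of DNMT3B-202 in the DNMT3B TPM was 50.8%, 51.7% and 52.6% without and 45.7%, 44.6% and 48.4% with doxycycline, and that of DNMT3B-203 was 32.2%, 34.3% and 34.9% without and 40.8%, 40.4% and 37.4% with it. Both differences, of -5.48 and 5.73 percentage points, separated the conditions completely, which for 3 against 3 gives an exact two-sided permutation p of 0.1, the smallest possible (0.2 adjusted over the 6 transcript shares compared, a comparison added after the data were seen). The files carry no estimate of how surely reads were divided between transcripts that share most of their exons, and this uncertainty is in none of these errors.

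DNMT3A transcripts start at different promoters. DNMT3A-203 and DNMT3A-205 start at chr2:25475180 and code for 723 and 689 residues, and DNMT3A-201 starts about 90 kb upstream at chr2:25565459 and codes for 912, with the additional N-terminal part of the long protein. DNMT3A-203 measured 19.2, 19.2 and 17.2 TPM without and 13.5, 12.5 and 14.3 TPM with doxycycline (log2 fold change -0.42, SE 0.063, edgeR adjusted p = 0.0612). DNMT3A-201 measured 5.35, 4.32 and 5.15 TPM without and 5.25, 4.47 and 5.88 TPM with it (log2 fold change 0.12, SE 0.12, edgeR adjusted p = 0.787). The short form was lower in each library with doxycycline, and the long form overlapped between conditions. The share of DNMT3A-201 in the gene was 10.3% to 13.4% without and 15.3% to 16.7% with doxycycline (exact two-sided permutation p = 0.1, adjusted 0.2). The share of the short promoter as a whole, 66.3% ± 3.62 without and 65.4% ± 1.74 with doxycycline (SD, n = 3), overlapped (exact permutation p = 0.8). With shares taken in estimated counts in place of TPM the difference was -7.40 percentage points (exact permutation p = 0.1, the smallest possible), so the size of this difference depends on the scale. Retained-intron models that start inside the gene count as further promoters in this share.

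Among the other members with more than 1 used promoter, the 4 tested differed in the share of the main promoter by -3.69 to -2.23 percentage points (exact permutation p between 0.2 and 0.6), in a design that cannot go below 0.1. With 5′ ends joined only within 100 bp, DNMT1 was at -4.11 points (exact permutation p = 0.1). TET1 was measured through a single transcript. The UHRF1 transcript ENST00000620565, coding for 856 residues where the main form ENST00000650932 codes for 792, went from 2.35 ± 0.938 to 0.948 ± 0.257 TPM (SD, n = 3; log2 fold change -1.25, SE 0.36, edgeR adjusted p = 0.245). ENST00000409262, the main TET3 form with 89.7% of its TPM, had a log2 fold change of -0.37 (SE 0.11, edgeR adjusted p = 0.255). The TET2 transcripts ENST00000513237 and ENST00000540549 carried identical values, so their reads were not told apart. Processed pseudogenes and antisense genes overlap or resemble some members, among them TDGP1, TET2-AS1 and DNMT3L-AS1. The RNA kit was directional, and whether strand was used in the quantification was not given in the sources used here.

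YY1 is a zinc finger factor that binds many promoters. A promoter was counted as carrying a peak when a deposited peak touched the 1000 bp on either side of a used 5′ end. Without doxycycline, 7 of the 9 genes carried a YY1 peak in both libraries (DNMT1, DNMT3A, DNMT3B, TET1, TET2, TET3 and TDG), against 61.8% of all tested genes. With doxycycline, 8 of 9 carried one in both libraries, against 69.8%. The added gene, DNMT3L, already had a peak in replicate 1 without doxycycline (fold enrichment 3.58), so its absence rests on replicate 2, and 8 members carried one when that library was left out. The YY1 lists held 56370 and 76098 peaks without and 82005 and 115673 with doxycycline. With as many peaks taken from each library, 6 members carried one in both libraries of each condition. The shares of tested genes were then 56.1% without and 54.5% with doxycycline. UHRF1 had no promoter peak in any of the 4 YY1 libraries, and its YY1 peaks lay inside the gene. The strongest had a fold enrichment of 7.24 at chr19:4927606 in replicate 2 without and 7.67 at chr19:4927763 in replicate 2 with doxycycline.

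The DNMT3B and TET2 promoters stood far above the rest of the group in YY1 enrichment. At TET2 the fold enrichment of the summit over the local background was 40.2 and 39.5 without and 55.7 and 46.6 with doxycycline, with summits 3 to 33 bp downstream of the 5′ end of TET2-203 in all 4 libraries. At DNMT3B it was 33.3 and 28.9 without and 41.7 and 33.7 with doxycycline, with summits at position -531 or -528 relative to the 5′ end. DNMT3A came next with 5.86 and 10.1 without and 13.4 and 11.1 with doxycycline, the strongest peak being at the long promoter in both replicates 1 and at the short one in both replicates 2. At the short promoter alone the conditions overlapped (5.425 and 10.1 against 9.36 and 11.05). At the long one they did not (5.86 and 6.20 against 13.4 and 8.13). Its summits lay 1320 to 1457 bp downstream of the 5′ end, outside the 1000 bp window that the peaks touched. The other members with a peak in all 4 libraries lay between 3.599 and 8.26, below the medians over genes of 9.31 and 9.47 without and 11.1 and 12.4 with doxycycline. By mean fold enrichment TET2 ranked 1209 and DNMT3B 1888 of the 9896 genes with such peaks. The values with doxycycline were wholly above those without at 3 of the 7 members with peaks in all libraries, DNMT3A, DNMT3B and TET2, against 40.0% of the 9896 genes, so these rises are near the background of the peak lists. With 2 libraries against 2 no exact test can go below p = 0.33.

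**Figure D3:**
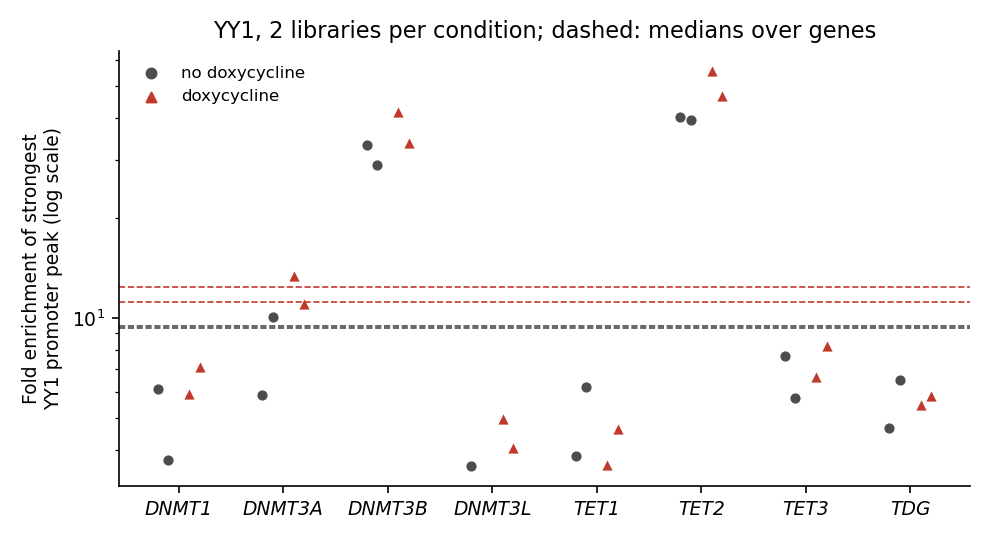
Fold enrichment of the strongest YY1 peak at the promoters of 8 members, log scale, with 2 libraries per condition, and dashed lines at the median over all genes with a peak in the 4 libraries. TET2 (39.5 to 55.7) and DNMT3B (28.9 to 41.7) lie above these medians of 9.31 to 12.4, and DNMT1, DNMT3L, TET1, TET3 and TDG below them.

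The YY1 core printed above was found within the 201 bp around the strongest summit at 4 of the 8 members with a peak, DNMT3A, DNMT3B, TET2 and TDG. It was found at 22.4% of the 13373 tested genes with a promoter peak, counting both strands. At the 3 members with the highest enrichment at promoters the match lay within 10 bp of the summit, and at TDG it lay 85 bp away.

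OCT4, a pluripotency factor, had promoter peaks at 5 members without doxycycline, DNMT3A, DNMT3B, TET1, TET2 and TET3, against 43.7% of all tested genes. With doxycycline it had 1, at TET2, against 6.48%. The 2 OCT4 libraries differed throughout, with 50775 peaks without and 23352 with doxycycline, and each condition had 1 library, so no test was possible. With as many peaks taken from each library, 3 members (DNMT3A, TET1 and TET2) carried one without doxycycline, against 13.65% of all tested genes in that setting. The promoter peaks had fold enrichments of 3.32 to 7.48, where the median over all peaks was 5.73 without and 5.583 with doxycycline. Those of TET1 (6.54) and TET2 (7.48) without doxycycline lay above the median of their library, and the other promoter peaks below it.

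Both OCT4 libraries also had peaks away from the promoters. In an intron of TET3, near chr2:74253666, the fold enrichment was 22.04 without and 8.80 with doxycycline. Upstream of TET3, near chr2:74207109, it was 17.0 and 11.9. In an intron of DNMT3A-201, near chr2:25534808, it was 14.93 and 14.98, in an intron of UHRF1 at chr19:4927478 it was 12.6 and 6.45, and in an intron of DNMT3B at chr20:31368823 it was 7.42 and 4.70. TET1 had 2 such peaks in introns, of which the stronger, at chr10:70360339, was at 8.31 and 6.10. The strongest YY1 peak of TET1 lay beside it, with summits between chr10:70360427 and chr10:70360466 and fold enrichments of 28.3 and 41.6 without and 31.1 and 50.7 with doxycycline, well above those at the TET1 promoter and overlapping between conditions. The UHRF1 peak lay near the YY1 peaks of UHRF1 named above. Of the 8 member peaks shared by both libraries, counting genes with 5 kb on either side, DNMT3A alone was not lower with doxycycline. Over the whole genome 85.1% of the 20385 shared peaks were lower, with a median ratio of 0.698. The octamer ATGCAAAT or its reverse complement ATTTGCAT was found only at the TET3 intron peak, with 2 matches within 201 bp, against 10.2% of all OCT4 peaks without doxycycline. The nearer match, 23 bp from the summit at chr2:74253628-74253657, is shown in capitals.
TET3: ccagagtggttATTTGCATtacaagggcag

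H3K9me3, the repressive mark that dCas9-KRAB deposits at its targets, was found at the promoter of 0 of the 9 genes in each of the 5 libraries. By library, the background was 8.77% and 6.54% of tested genes without doxycycline, 7.20% and 6.98% with it and 4.81% in the NCCIT library. For a peak in both libraries it was 5.36% without and 4.8% with doxycycline. With windows of 2500 bp on either side, 0 members carried a peak in both libraries of a condition or in the NCCIT library. The shares of tested genes were then 11.45% without doxycycline, 10.24% with it and 10.55% in the NCCIT library. A count of 0 of 9 is near all these shares. Inside the genes the mark was present in both conditions, and the highest peak of a library lay in an intron except at DNMT3L. TET3 carried 6 peaks without doxycycline in each library and 5 and 7 with it, with the highest fold enrichments of 21.3 and 9.98 without and 17.9 and 12.3 with doxycycline, between chr2:74287372 and chr2:74289317. DNMT3A had 1 peak in its long intron in all 5 libraries, near chr2:25549658, at 7.41 and 6.96 without and 10.6 and 3.99 with doxycycline. TET2 had 7 and 10 peaks without and 1 and 8 with doxycycline, with the highest fold enrichments of 4.45 and 7.14 without and 4.82 and 7.92 with it. DNMT1 had 1 peak in replicate 1 of each condition and in the NCCIT library, and 0 in either replicate 2. This peak lay upstream of the main DNMT1 5′ end at chr19:10305811, within none of the DNMT1 transcripts that held at least 5% of the gene TPM. DNMT3L had 1, with its summit in an exon, in replicate 1 without doxycycline alone (fold enrichment 5.865). DNMT3B, UHRF1, TET1 and TDG had none in any library within 5 kb of the gene.

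Peaks of H3K9me3 seen in both doxycycline libraries and in none of the other 3 numbered 2482. The nearest to a member was 34075 bp from the TET1 promoter, at chr10:70283069-70286019, with a fold enrichment of 9.15 in replicate 1. The nearest to DNMT3B was 36613 bp away, at chr20:31313243-31313578, with a fold enrichment of 5.30. The other 7 lay 167210 bp (TET2) to 1116210 bp (DNMT3A) away, UHRF1 793513 bp. The median over all tested genes was 400132 bp. These distances were computed after the data were seen, and no link between such a peak and a gene was tested.

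Genes that work with the 9 enzymes were read from lists, whose counts stand against 8.48% of all tested genes called lower and 8.97% called higher. The lists were chosen with earlier results of these data known, so this comparison is not an independent one. Of 10 maintenance partners, 6 were downregulated and 0 upregulated, with a median log2 fold change of -0.25. USP7, which deubiquitinates and stabilises DNMT1 and UHRF1, fell by 0.41 (SE 0.056, edgeR adjusted p = 0.00136) on the log2 scale. CDCA7, which recruits the remodeller HELLS, fell by 0.36 (SE 0.057, edgeR adjusted p = 0.00305), and PCLAF, a PCNA-binding protein, fell by 0.42 (SE 0.069, edgeR adjusted p = 0.00397). PCNA (the replication clamp), HELLS and CDCA7L were also lower. UHRF2 did not pass (log2 fold change -0.08, edgeR adjusted p = 0.317).

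Of 20 demethylation and base excision partners, 2 were lower and 2 higher, close to the shares over all tested genes. APEX1, the abasic-site endonuclease, fell by 0.24 (SE 0.062, edgeR adjusted p = 0.0268). The glycosylases NEIL3 (log2 fold change 0.39, SE 0.074, edgeR adjusted p = 0.0074) and SMUG1 (0.28, SE 0.071, edgeR adjusted p = 0.0271) rose. Of 10 methyl-CpG readers, 2 were higher, among them MBD3 (log2 fold change 0.24, edgeR adjusted p = 0.044), and 1 was lower, ZBTB38 (-0.37, edgeR adjusted p = 0.0207). Of 6 CXXC proteins that bind unmethylated CpGs, KDM2B fell by 0.31 (edgeR adjusted p = 0.00871). Of 8 genes of cofactor metabolism, which make the methyl donor and the TET cosubstrate, IDH2 alone passed (log2 fold change 0.28, edgeR adjusted p = 0.018).

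Germline and imprinted genes are known for promoters or control regions under DNA methylation. Of 17 germline genes, 11 were tested, 3 were lower and 0 higher, with a median log2 fold change of -0.52 and a summed level of 22.6 to 25.0 CPM without and 16.3 to 18.7 CPM with doxycycline. HORMAD1 had 0.348 to 0.568 CPM without and 0.0209 to 0.106 CPM with doxycycline (log2 fold change -3.06, SE 0.56, edgeR adjusted p = 0.00652), MAEL fell by 1.40 (SE 0.35, edgeR adjusted p = 0.0251) and SYCP1 by 0.52 (SE 0.15, edgeR adjusted p = 0.0374). All but SYCP1 of these were under 1 CPM. Of 20 imprinted genes, 15 were tested, with 2 lower (PEG3 at -0.67, edgeR adjusted p = 0.00177, and RTL1 at -2.72, edgeR adjusted p = 0.0246, with 1 library at 0 CPM) and 3 higher (IGF2 at 0.82, edgeR adjusted p = 0.0155, NNAT at 0.38, edgeR adjusted p = 0.0257, and SNRPN at 0.21, edgeR adjusted p = 0.0287). HORMAD1, MAEL and RTL1 passed the filter on low counts only through the libraries without doxycycline, where they were higher. Their falls, and the counts called lower that hold them, are therefore not independent of this filter. DNA methylation itself was not measured.

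Of 10 pluripotency markers, 6 were downregulated and 0 upregulated, against 8.48% of all tested genes called lower and 8.97% called higher. The other 4 did not pass (POU5F1, SOX2, LIN28A and DPPA4). The summed level of all 10 was 3066 to 3321 CPM without and 2475 to 2702 CPM with doxycycline. TDGF1, a Nodal co-receptor, fell by 1.13 (SE 0.065, edgeR adjusted p = 8.32e-06), NANOG by 0.57 (SE 0.052, edgeR adjusted p = 0.000136) and L1TD1 by 0.62 (SE 0.062, edgeR adjusted p = 0.000257). POU5F1 was at -0.12 (SE 0.12, edgeR adjusted p = 0.528). Lineage markers passed singly and mostly at low levels: GATA6 (endoderm) rose by 1.46 on the log2 scale from 0.963 to 2.60 CPM (edgeR adjusted p = 0.00194), MIXL1 (mesoderm) by 0.55 (adjusted p = 0.0227), NEUROG2 (ectoderm) by 0.98 (adjusted p = 0.0417) and THY1 (fibroblast list) by 0.88 (adjusted p = 0.000817), and none of the 3 tested trophoblast markers passed. The summed level of endoderm markers, mostly GATA6, was 1.20 to 1.77 CPM without and 2.89 to 3.64 CPM with doxycycline. The other tested endoderm markers, GATA4 and FOXA2, overlapped between conditions and did not pass (edgeR adjusted p = 0.847 and 0.249). The sum of trophoblast markers, mostly TFAP2A, was 719 to 798.1 CPM without and 633.3 to 687 CPM with doxycycline. The sums of the mesoderm, ectoderm and fibroblast lists overlapped. The part of such shifts in the fall of DNMT3B was not tested.

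The 5 genes whose CPM followed DNMT3B most closely over the 6 libraries, among 10003 genes averaging 10 CPM or more, were LRIG1, C4orf46, NUDT3, SFMBT2 and DGCR8 (Pearson r of log2 CPM 0.996 to 0.999). The 6 points share 2 conditions, so any gene lower with doxycycline tends to score high, and the log2 fold changes of these 5 lay between -0.54 (LRIG1) and -0.22 (NUDT3).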

How the data were processed

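RNA reads were poly(A)-selected, directional and paired-end, and the authors quantified them with kallisto as estimated counts and TPM per Ensembl transcript for each library. For ChIP-seq, adapters were removed (TrimGalore!), BWA MEM placed the reads on hg19, reads at a mapping quality over 10 were retained and duplicates dropped, and the deposited peak lists give for each library, at 5% FDR, the fold enrichment and -log10 p and q of each peak. The kallisto transcript set, the tool versions and the peak caller were not given in the sources used here. Of 188753 transcripts, 166506 (88.2%) were assigned to a gene, and they held 95.85% to 95.96% of the counts. Estimated counts were summed per gene, rounded, filtered with filterByExpr and tested with edgeR 4.0.16 (TMM, quasi-likelihood) in R 4.3.3, with Benjamini-Hochberg adjustment over all tested genes or transcripts and a threshold of 0.05. DESeq2 1.42.0, which the study names, was an alternative. Scripts were tested on simulated data. Shares were compared with exact two-sided permutation tests. Promoters were used 5′ ends, joined within 500 bp, with at least 5% of the gene TPM. Sequence and GENCODE annotation were those of GRCh37. The members and lists were chosen with earlier results of these data known. All 9 members were named, with transcripts of at least 5% of their gene TPM, and of each list up to 3 genes of lowest adjusted p in each direction that passed, except that some list genes are counted but not reported here by name. Markers named as absent or for their level, and the distances to H3K9me3 peaks, were chosen after their values were seen. A HiChIP table was not used, because its columns could not be tied to conditions.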

Additional observations from a re-analysis of the deposited data

How the results depend on the processing

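Of 108 recomputed log2 fold changes of the members, 91 kept direction and side of the threshold and 1 reversed. DNMT3B and UHRF1 passed under every alternative run, and DNMT3B ranged from -0.67 to -0.56. The cause of the following changes was not tested. With length-scaled counts 1878 of all genes were called in place of 2858, DNMT3A passed at -0.354 (edgeR adjusted p = 0.0204) and TET3 was lost at -0.306 (0.117). With DESeq2, DNMT1 passed at -0.177. Without a filter on low counts TET2 passed at -0.34. A minimum of 10 counts in every library gave 808 called transcripts in place of 439, and 2 among the members in place of 1. Correlations of deviations between libraries of equal replicate number were 0.235, 0.089 and -0.015 for numbers 1 to 3. Those between unequal numbers ran from -0.217 to 0.143, so whether the numbers pair the libraries was not settled. With the replicate block 3316 genes, 4 members, 13 transcripts and 0 member transcripts were called, TET1 (-0.281) and TET2 (-0.335) passed and TET3 (-0.338) was lost. When 1 library was left out, calls ranged from 1396 (without doxycycline replicate 2) to 3259 (without no-doxycycline replicate 1) for all genes, from 2 to 6 for members, from 33 to 70 for transcripts and were 0 for member transcripts. The log2 fold changes then ranged from -0.25 to -0.137 for DNMT3A, -0.109 to 0.011 for DNMT3L, whose sign turned without doxycycline replicate 2, -0.395 to -0.211 for TET1, -0.447 to -0.245 for TET2 and -0.432 to -0.233 for TET3. With 1 library left out, changes in the share of the main promoter ranged from -2.93 to 0.4508 percentage points for DNMT3A and from -6.127 to 0.2695 for UHRF1. For DNMT3A this change was -7.40 points with shares in estimated counts and -3.40 with protein-coding transcripts only. Of the promoter peaks, OCT4 with doxycycline had 0 at a -log10 q of at least 5 (4.73% of all tested genes), and OCT4 without doxycycline had 3 when both lists were cut to equal length (13.65%). The RNA depth of no-doxycycline replicate 1 was the lowest. Differences in peak strength were not put to a model-based test, and an exact test of 2 against 2 libraries cannot go below p = 0.33.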
